A study of Mus musculus with 4 samples.

Results

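Transcripts of 8 genes of the interleukin-1 (IL-1) axis and of the chemokine receptor Cxcr2 were followed through the liver mononuclear cells of 4 mouse libraries. The genes were chosen by symbol: Il1a, Il1b, Il18, Il1rn, Il1r2, Cxcl1, Cxcl2 and Cxcr2, which are 8 of the 31053 genes in the count matrices, and all 8 were found. Each library was a single-cell RNA-sequencing library made with a 5′ assay from the liver cells of C57BL/6 mice aged 8 to 10 weeks, released by enzymatic dissociation and enriched over a Percoll gradient. What the Naïve mice received, if anything, was not stated. The other 3 groups received concanavalin A (ConA), a plant lectin that activates T cells and causes an acute hepatitis. They also received the vehicle (ConA+Veh), TCDD (ConA+TCDD) or FICZ (ConA+FICZ), and their cells were taken 24 hours after ConA. By the paper's methods, TCDD or the vehicle, corn oil, was given after ConA, and FICZ is not described there. TCDD, a persistent dioxin, and FICZ, a tryptophan photoproduct, are both ligands of the aryl hydrocarbon receptor (AhR). The study asked how AhR ligands alter the immune cells of the ConA-injured liver. There was 1 library for each condition and the number of mice behind each was not given, so no difference between conditions below has a replicate check and none was tested. All intervals are exact 95% intervals that cover counting error only.

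IL-1α and IL-1β, the products of Il1a and Il1b, signal through the same receptor, and IL-1β and IL-18 are made as inactive precursors that inflammasomes cause to be cleaved. Il1rn encodes the receptor antagonist, which occupies the IL-1 receptor without signalling, and Il1r2 encodes a decoy receptor that binds IL-1 without passing the signal on. IL-1 signalling induces the chemokines encoded by Cxcl1 and Cxcl2, which draw neutrophils into inflamed liver through their receptor Cxcr2.

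The libraries held 2086, 2779, 1880 and 2555 cells, with 5952445 to 19252211 unique molecular identifiers (UMIs, each marking 1 captured transcript) and a median of 2161 to 3984 UMIs per cell. Here and wherever 4 values follow each other without names, they stand for Naïve, then ConA+Veh, then ConA+TCDD and last ConA+FICZ. Cells were assigned by marker genes. A cell joined a class, called a gate here, when at least 3 of the 10 genes of its marker list had a UMI and no other of the 14 lists had as many. The neutrophil gate held 23, 101, 43 and 266 cells in the 4 libraries, and 97.0% to 100% of them fell into 1 cluster led by S100a9, S100a8 and Retnlg. The monocyte gate held 64, 176, 43 and 172 cells, the endothelial gate 42, 53, 6 and 37, and the macrophage gate only 3, 37, 7 and 24. Of the monocyte-gated cells, 10, 124, 24 and 122 also had UMIs of at least 3 genes of a second list. Cells with mixed markers were thus most of the ConA monocytes and few of the Naïve ones. Macrophage-gated cells carried C1qa, C1qb and C1qc. Clec4f, Timd4, Vsig4 and Marco, which mark the resident macrophages of the liver (Kupffer cells), had no UMI there in Naïve or ConA+FICZ. Each was found in a minority of macrophage-gated ConA+Veh cells, from 8.11% for Vsig4 up to 16.2% for Marco. The ConA+TCDD gate also held each, Timd4 in 28.6% of cells and the rest in 14.3%. Of the same marker list, Cd5l was found in 0%, 21.6%, 42.9% and 12.5% of macrophage-gated cells in the 4 libraries. Folr2 was in 33.3%, 35.1%, 28.6% and 29.2%, and Cd163 in 33.3%, 10.8%, 0% and 16.7%. The Naïve gate held only 7359 UMIs, so a count of 0 there is weak evidence of absence. Between libraries, 45 cell barcodes were shared, and 10 cells of the 4 gates carried such a barcode.

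Monocyte-gated and endothelial-gated cells did not sit in the same clusters in all libraries. Of the Naïve monocytes, 46 of 64 were in a cluster led by Lyz2, Fn1 and Csf1r and 13 in one led by C1qb, Lyz2 and Ccl6. The latter cluster held 138 of 176 monocytes in ConA+Veh, 25 of 43 in ConA+TCDD and 157 of 172 in ConA+FICZ. By UMIs, it held 1158474 of the gate's 1865477 in ConA+Veh but only 176382 of 526565 in ConA+TCDD. A cluster led by Prtn3, Ifitm1 and Lyz2 held 3, 34, 16 and 13 monocytes in the 4 libraries. Elane, Ctsg and Mpo were also among its leading genes, and 37.6% of its cells were in a granulocyte progenitor gate. In the endothelial gate, 33 of 42 Naïve cells were in a cluster led by Igfbp7 and Clec4g, whereas 97.3% to 100% of those from the ConA libraries were in one led by Fabp4 and Cxcl9. Clec4g, a marker of liver sinusoidal endothelium, had a UMI in 85.7% of Naïve endothelial cells and in 1.89% of those in ConA+Veh, 0% in ConA+TCDD and 8.11% in ConA+FICZ. The cluster led by C1qb also held 85.7% to 100% of the macrophage gate, and its 10 leading genes include C1qb, C1qc and C1qa of the macrophage list, Chil3 of the monocyte list and Cxcl2 itself. Within this cluster, the monocyte and macrophage gates are thus told apart only by the markers counted in each cell. Where the shared cluster of a gate (the one led by C1qb for monocytes, the one led by Fabp4 for endothelium) changed a call, the value within it is also given.

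The sequences before the start sites of 4 ligand genes are shown because the chemokine pair shares a motif and so do the IL-1 pair. Il1a (chr2:129299610-129309972, minus strand), Il1b (chr2:129364570-129371139, minus strand) and Il1rn (chr2:24336853-24351494, plus strand) are on chromosome 2, and Cxcl1 (chr5:90891241-90893115, plus strand) and Cxcl2 (chr5:90903871-90905938, plus strand) are neighbours on chromosome 5 (GRCm38). Il1r2 (chr1:40074079-40125231) and Cxcr2 (chr1:74153989-74161246) are on chromosome 1 and Il18 (chr9:50554827-50581840) is on chromosome 9, all on the plus strand. The 200 bases before the RefSeq start site (GRCm38.p6) follow for the chemokine pair, from chr5:90891045-90891244 and chr5:90903699-90903898, with the match to the kappaB consensus of NF-κB in capitals (a forward match and a reverse match 1 base on, joined):
Cxcl1: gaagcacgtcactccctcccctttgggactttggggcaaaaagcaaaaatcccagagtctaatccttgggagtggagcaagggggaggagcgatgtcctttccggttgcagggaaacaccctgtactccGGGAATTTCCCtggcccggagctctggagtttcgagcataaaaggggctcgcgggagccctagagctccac
Cxcl2: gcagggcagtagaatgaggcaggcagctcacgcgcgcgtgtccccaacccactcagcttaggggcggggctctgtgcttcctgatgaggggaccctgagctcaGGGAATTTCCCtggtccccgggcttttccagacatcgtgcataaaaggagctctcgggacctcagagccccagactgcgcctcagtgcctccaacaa
The capitals are the same letters in both genes, from 71 bases before the start site in Cxcl1 and from 97 in Cxcl2. A kappaB match was found in the 250 bases before the start in 7.25% of all 32851 promoters, and in 2 of the 8 members. The last 28 bases of the Cxcl2 window lie in annotated exons.

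For the IL-1 ligands the 200 bases on the minus strand are chr2:129309973-129310172 (Il1a) and chr2:129371140-129371339 (Il1b), outside annotated exons, with TATAAA and TGANTCA (the AP-1 element) in capitals:
Il1a: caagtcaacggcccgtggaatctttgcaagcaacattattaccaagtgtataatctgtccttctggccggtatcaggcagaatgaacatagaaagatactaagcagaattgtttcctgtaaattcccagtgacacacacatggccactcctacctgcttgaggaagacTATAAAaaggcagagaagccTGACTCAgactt
Il1b: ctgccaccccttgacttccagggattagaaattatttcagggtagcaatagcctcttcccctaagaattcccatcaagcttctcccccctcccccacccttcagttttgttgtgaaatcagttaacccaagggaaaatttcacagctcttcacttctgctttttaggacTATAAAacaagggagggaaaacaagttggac
Both genes held TATAAA, at 32 and 31 bases before the start, a motif found in 12.4% of promoters on either strand, and Il1a also held the AP-1 letters, found in 6.75%. Il1rn held the AP-1 letters 141 bases before 1 of its 3 start sites, and Il18 held TATAAA on the reverse strand. The letters TNGCGTG of the AhR response element, on either strand, were found in 4.10% of promoters and in the 250 bases of none of the 8 members. No motif overlapped another of a different name in these windows. These matches describe the letters and say nothing of binding.

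In neutrophils, Il1b, Il1r2, Cxcl2 and Cxcr2 were detected in most cells of every library, and no member passed a 2-fold difference in any comparison. A difference was called past 2-fold when the log2 ratio was at least 1 in size, its interval excluded 0 and both libraries together held at least 20 UMIs. Of all genes with enough UMIs in this gate, 5.7% passed higher and 11.5% lower in ConA+Veh against Naïve, 4.95% and 2.45% in ConA+TCDD against ConA+Veh, and 7.05% and 2.07% in ConA+FICZ against ConA+Veh. Levels are CPM, that is, the UMIs of a gene per 1000000 UMIs of all cells in a gate. Il1b was at 3554 CPM in Naïve, 2722 in ConA+Veh, 2141 in ConA+TCDD and 2281 in ConA+FICZ neutrophils. The Naïve library was the highest and the 3 ConA libraries lay within 1.27-fold of ConA+Veh, although the Naïve value rests on 173 UMIs in 20 of 23 cells. Against Naïve, the log2 ratio in ConA+Veh was −0.39 (interval −0.63 to −0.14). Against ConA+Veh, it was −0.35 (−0.57 to −0.12) in ConA+TCDD and −0.26 (−0.38 to −0.13) in ConA+FICZ. These 2 comparisons share the ConA+Veh library, here and throughout. The share of neutrophils with an Il1b UMI was 87.0% in Naïve, 77.2% in ConA+Veh, 53.5% in ConA+TCDD and 62.4% in ConA+FICZ. With every cell thinned to 500 UMIs, so that depth is equal, the shares were 56.5%, 57.4%, 41.9% and 44.4%, in that order. The T and natural killer (NK) gate, whose median depth was 2462 to 5577 UMIs against 1741 to 2269 in neutrophils, held Il1b in 0.156% to 0.850% of cells, and the B gate (2136 to 4263.5 UMIs) in 0% to 0.827%.

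The receptor antagonist and the decoy receptor were both carried by neutrophils. Il1rn was at 473 CPM in Naïve, 273 in ConA+Veh, 233 in ConA+TCDD and 432 in ConA+FICZ neutrophils, from 23, 72, 23 and 299 UMIs. It was thus lower in ConA+Veh and ConA+TCDD than in the other libraries. The log2 ratio was −0.79 (−1.49 to −0.05) in ConA+Veh against Naïve and 0.66 (0.29 to 1.05) for ConA+FICZ against ConA+Veh, neither past 2-fold. In ConA+TCDD the ratio to ConA+Veh was −0.23 (−0.97 to 0.47). Il1r2 was at 2794, 2282, 2172 and 2526 CPM in the neutrophils of the 4 libraries, the narrowest spread of the 5 members tested in all 3 comparisons of this gate. Its log2 ratios were −0.29 (ConA+Veh against Naïve), −0.07 (ConA+TCDD against ConA+Veh) and 0.15 (ConA+FICZ against ConA+Veh). Of the neutrophils with Il1b, 85.0%, 87.2%, 87.0% and 92.2% also held Il1r2 in the 4 libraries, beside 100%, 87.0%, 75% and 84.0% of those without Il1b. For each Il1b UMI there were 0.133 (0.0821 to 0.206) Il1rn UMIs in Naïve, 0.100 (0.0776 to 0.128) in ConA+Veh, 0.109 (0.0676 to 0.168) in ConA+TCDD and 0.189 (0.167 to 0.214) in ConA+FICZ neutrophils. The ConA+FICZ interval of this antagonist-to-ligand count ratio lay above that of ConA+Veh and overlapped the other 2.

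Cxcl2 and its receptor were found together in single neutrophils. Cxcl2 was at 17793 CPM in Naïve, 11263 in ConA+Veh, 11448 in ConA+TCDD and 17415 in ConA+FICZ neutrophils. Naïve and ConA+FICZ were high and ConA+Veh and ConA+TCDD low, with log2 ratios of −0.66 (−0.77 to −0.55) for ConA+Veh against Naïve, 0.02 (−0.08 to 0.12) for ConA+TCDD against ConA+Veh and 0.63 (0.57 to 0.69) for ConA+FICZ against ConA+Veh. A neutrophil held a median of 22, 21, 11 and 31.5 Cxcl2 UMIs in the 4 libraries. Beside these values, the summed level of 11 genes that respond to tissue dissociation (Fos, Jun, Hspa1a and others) was 8547, 4162, 4120 and 6355 CPM in the same neutrophils, and like Cxcl2 it was higher in Naïve and ConA+FICZ than in the other libraries. The genes of this sum did not all follow that order. Against ConA+Veh, Fos, Fosb, Jun and Atf3 were past 2-fold higher in ConA+FICZ neutrophils and Hspa1a was lower. Jun and Atf3 were also past 2-fold higher in ConA+TCDD neutrophils. The part of this sum in the Cxcl2 levels was not tested. Cxcr2 was at 1027 CPM in Naïve, 656 in ConA+Veh, 416 in ConA+TCDD and 693 in ConA+FICZ neutrophils. The ConA+TCDD level was the lowest, with a log2 ratio to ConA+Veh of −0.66 (−1.19 to −0.16) from 41 UMIs. It was 0.08 (−0.17 to 0.34) for ConA+FICZ and −0.65 (−1.11 to −0.16) for ConA+Veh against Naïve. Other genes also differed in the ConA+TCDD neutrophils. Ngp, a granule gene of immature neutrophils, was at 24225 CPM against 9765 in ConA+Veh, Retnlg at 10941 against 23287, the summed monocyte markers at 9022 against 4545 and the summed granulocyte progenitor markers at 264 against 125. The monocyte list includes Chil3, which is also a leading gene of the neutrophil cluster, at 4509 CPM and in 85.0% of its cells. That sum is therefore not a measure of monocyte RNA alone. The part of all these genes in the Cxcr2 level was not tested. Neutrophils with both Cxcl2 and Cxcr2 were 82.6%, 63.4%, 51.2% and 68.8% of all neutrophils in the 4 libraries.

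**Figure D1:**
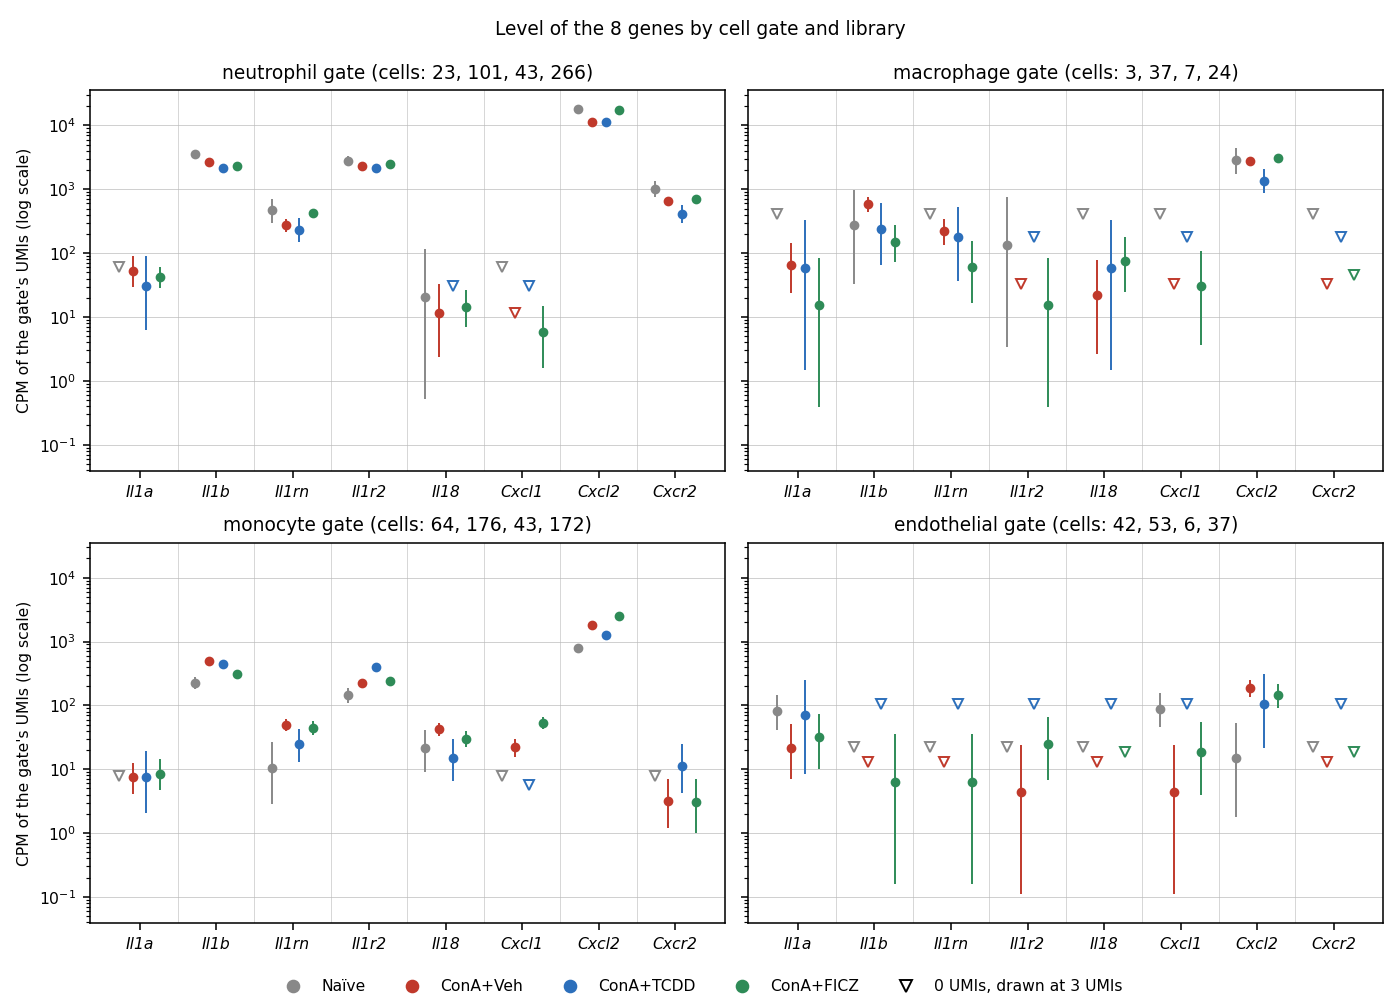
Level of each of the 8 genes (CPM on a log axis) in the neutrophil, macrophage, monocyte and endothelial gates, with 1 point for each library and bars for the exact 95% Poisson interval of counting error. Cxcr2 is set apart by its neutrophil levels of 416 to 1027 CPM, and Cxcl2 in neutrophils lies between 11263 and 17793 CPM in all 4 libraries.

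The remaining members had few UMIs in neutrophils. Il1a had 0, 14, 3 and 29 UMIs in the neutrophils of the 4 libraries, and Il18 had 1, 3, 0 and 10. Cxcl1 had 4 UMIs in 2 ConA+FICZ neutrophils and 0 in the other libraries, where 3 UMIs, taken here as the limit that a count of 0 allows, would be 61.6 CPM in Naïve neutrophils.

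As CPM, Il1b, Il1rn, Il1r2, Cxcl2 and Cxcr2 were lower in monocytes than in neutrophils of the same library. CPM is a share of a gate's UMIs and not a level per cell. Monocytes were deeper, with a median of 3582.5, 8047, 7886 and 6691.5 UMIs against 1823, 2269, 1741 and 2145.5. In ConA+TCDD, with 43 cells in each gate, neutrophils held 211 Il1b UMIs and monocytes 238. The other counts there were 214 and 207 for Il1r2, 23 and 13 for Il1rn, 1128 and 661 for Cxcl2 and 41 and 6 for Cxcr2. The folds that follow are of CPM. Il1b was 15.9-fold (12.2 to 20.8) higher in neutrophils than in monocytes in Naïve, 5.50-fold (4.98 to 6.06) in ConA+Veh, 4.74-fold (3.92 to 5.73) in ConA+TCDD and 7.29-fold (6.59 to 8.07) in ConA+FICZ. For Cxcl2 these ratios were 22.3-fold in Naïve, 6.10-fold in ConA+Veh, 9.12-fold in ConA+TCDD and 7.04-fold in ConA+FICZ, and for Il1r2 19.3-fold, 10.2-fold, 5.52-fold and 10.5-fold. The gap in Il1b, Cxcl2 and Il1r2 between the whole gates was thus widest in Naïve. Within the shared cluster, monocyte Il1r2 was at 261 CPM in Naïve and 147 in ConA+Veh, so for Il1r2 this order was not kept there. Among the 4 gates, Cxcr2 was mostly in neutrophils. It had 0, 6, 6 and 5 UMIs in the monocytes of the 4 libraries and none in the macrophage or endothelial gates. The 6 UMIs in ConA+TCDD monocytes were all in 1 cell. Together the 4 gates held 82.5% of the Cxcr2 UMIs in ConA+TCDD, the lowest share, and 98.0% in Naïve, the highest.

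The IL-1 and chemokine transcripts that were past 2-fold higher in ConA+Veh than in Naïve were mostly in monocytes: Il1b, Il1rn, Cxcl1 and Cxcl2. Over the 4 gates, 15 of 32 pairs of member and gate had enough UMIs for ConA+Veh against Naïve, of which 5 were past 2-fold higher and 0 lower, beside 5.02% higher and 9.05% lower of all 12967 gene and gate pairs with enough UMIs. In the monocyte gate, 4 of 6 members were higher and 0 lower, beside 3.26% and 8.29% of 7421 genes. Within the shared cluster, which held only 13 of the 64 Naïve monocytes, 1 of those 4 calls was kept, that of Il1b. The median log2 ratio of those 6 members was 1.18, and that of all genes in the gate was −0.09.

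Il1b in monocytes was at 224 CPM in Naïve, 495 in ConA+Veh, 452 in ConA+TCDD and 313 in ConA+FICZ. The 3 ConA libraries were all above Naïve, and ConA+Veh against Naïve had a log2 ratio of 1.14 (0.82 to 1.48), a 2.21-fold difference. Within the cluster led by C1qb, Lyz2 and Ccl6, where 13 Naïve and 138 ConA+Veh monocytes lay, the level was 106 CPM in Naïve and 636 in ConA+Veh, a log2 ratio of 2.59 (1.86 to 3.43). As the mean of each cell's own CPM the log2 ratio was 0.19, and after thinning to 500 UMIs a UMI was found in 15.6%, 14.8%, 16.3% and 15.1% of monocytes in the 4 libraries, against 39.1%, 51.1%, 34.9% and 33.7% without thinning. The median depth of these cells was 3582.5 UMIs in Naïve and 8047, 7886 and 6691.5 in ConA+Veh, ConA+TCDD and ConA+FICZ, and its part in the summed level was not tested. Il1rn in monocytes was at 10.5, 49.3, 24.7 and 44.5 CPM in the 4 libraries. Naïve was the lowest, from 4 UMIs, and the log2 ratio of ConA+Veh to it was 2.22 (0.82 to 4.13), or 1.35 (−0.06 to 3.25) within the shared cluster, where it was no longer a call.

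Cxcl2 in monocytes was at 796 CPM in Naïve, 1845 in ConA+Veh, 1255 in ConA+TCDD and 2474 in ConA+FICZ. All ConA libraries were above Naïve, and ConA+Veh had a log2 ratio of 1.21 (1.04 to 1.39) to it. Thinned to 500 UMIs, 15.6% of Naïve monocytes held Cxcl2 and 42.0%, 34.9% and 51.2% of those in ConA+Veh, ConA+TCDD and ConA+FICZ, against at most 0.799% in the B and T or NK gates. Within the cluster led by C1qb the Naïve level was 2037 CPM and the ConA+Veh level 2320, a log2 ratio of 0.19 (0.01 to 0.37), so the 2-fold call was lost. Monocytes with at least 3 macrophage markers numbered 6 in Naïve and 91 in ConA+Veh. Their log2 ratio for Cxcl2 was 0.15 (−0.07 to 0.39), and that of the monocytes with fewer such markers was 1.35 (1.09 to 1.62). Il1b differed the other way round, at 0.63 (0.28 to 1.0) in the monocytes with fewer macrophage markers and 4.44 in those with at least 3, the latter from 2 Naïve UMIs.

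**Figure D2:**
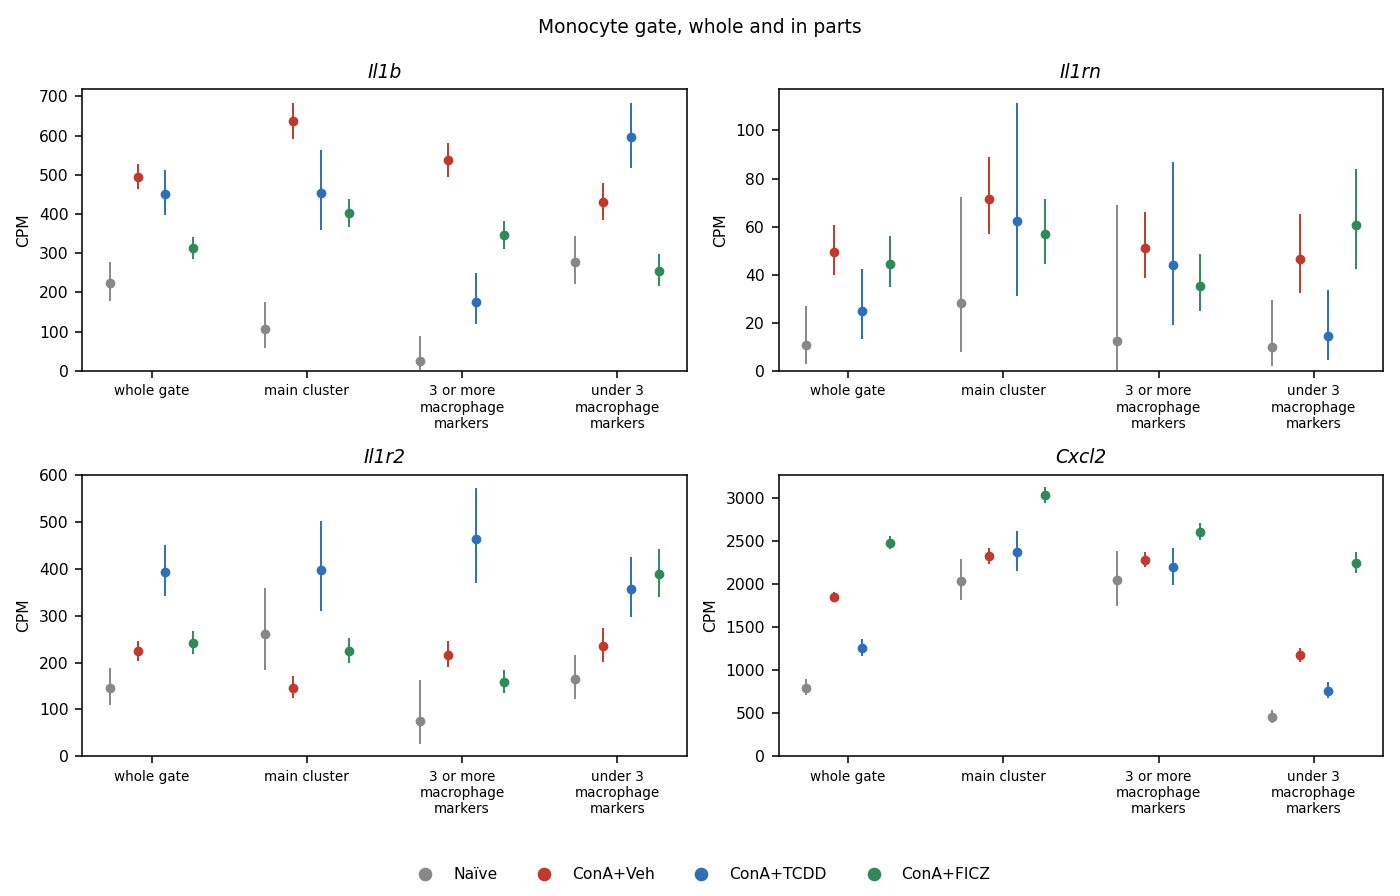
Levels of Il1b, Il1rn, Il1r2 and Cxcl2 (CPM) in monocyte-gated cells of each library, for the whole gate, its main cluster, and the cells with at least 3 or under 3 macrophage markers, with exact 95% Poisson intervals. Cxcl2 in Naïve stands at 2047 CPM in the 6 cells with at least 3 macrophage markers and at 459 CPM in the other 58.

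Cxcl1 in monocytes had 0 UMIs in Naïve and ConA+TCDD, 41 in ConA+Veh (22.0 CPM) and 88 in ConA+FICZ (53.7 CPM). Set against 3 UMIs in Naïve, ConA+Veh was 2.78-fold higher, a value that takes its 41 UMIs as exact. Of the 41 UMIs, 22 came from 1 of the 5 cells with any. Without that cell the call was lost (log2 ratio 0.37), as it was within the shared cluster (0.19). All 41 UMIs were in monocytes with at least 3 macrophage markers. Il18 in monocytes was at 21.1, 42.3, 15.2 and 29.9 CPM in the 4 libraries, from 8, 79, 8 and 49 UMIs, with a log2 ratio for ConA+Veh against Naïve of 1.0 (−0.04 to 2.27), which counting error does not separate from 0. Il1r2 in monocytes was at 145, 224, 393 and 242 CPM in the 4 libraries. It was highest in ConA+TCDD. The log2 ratio of ConA+Veh to Naïve was 0.63 (0.22 to 1.06), but within the shared cluster the order was turned, with 261 CPM in Naïve and 147 in ConA+Veh (−0.83, −1.35 to −0.28). Monocytes with Il1r2 also held Ly6c2, a gene of classical monocytes, in 85.7%, 97.2%, 100% and 92.9% of cells, beside 78%, 77.9%, 72.2% and 88.5% of the monocytes without Il1r2. Of the neutrophil genes examined beside it, Retnlg had no UMI in any monocyte with Il1r2, and one in 0%, 0.962%, 0% and 0% of the rest. S100a8 had one in 21.4%, 47.2%, 40% and 49.4% of the monocytes with Il1r2, beside 4%, 26.0%, 27.8% and 25.3% of the rest. Ly6c2 is in the monocyte marker list and Retnlg and S100a8 are in the neutrophil list, so the gating itself shaped these shares. Cells were not thinned for them. The part of neutrophil RNA in monocyte Il1r2 was not tested.

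In ConA+TCDD against ConA+Veh, 0 of 15 members and gates were past 2-fold higher and 3 were lower, beside 2.84% higher and 3.18% lower of all 12238 gene and gate pairs. The 3 lower ones were Cxcl2 in macrophages and Il18 and Cxcl1 in monocytes. In the monocyte gate, 2 of 6 members were lower and 0 higher, beside 3.49% and 1.98% of all its genes. Il18 had a log2 ratio of −1.48 (−2.74 to −0.43), or −1.03 (−2.70 to 0.27) within the shared cluster, where it was no longer a call. Cxcl1 had 0 UMIs in ConA+TCDD and, with 3 put in their place, was 3.86-fold lower. That value takes the 41 ConA+Veh UMIs as exact. Without the single ConA+Veh cell with the most Cxcl1 the log2 ratio was −0.77 (upper limit −0.33). The call was then lost, as it was within the shared cluster (−0.51). Il1rn in monocytes had a log2 ratio of −1.0 (−1.96 to −0.15), just inside the limit of 2-fold. Il1r2 had 0.81 (0.56 to 1.06), and within the shared cluster 1.44, past 2-fold, with 50 of its 70 UMIs there in 1 ConA+TCDD cell. Il1b and Cxcl2 in monocytes had −0.13 (−0.34 to 0.08) and −0.56 (−0.68 to −0.43), the latter 0.03 within the shared cluster and 0.41 without cells of a second marker list. The Il1b value joined parts of the gate that differed in opposite directions. In monocytes with at least 3 macrophage markers Il1b had −1.61 (−2.17 to −1.09), with 17 of 32 ConA+TCDD UMIs in 1 of 13 cells. In those with fewer such markers it had 0.47 (0.21 to 0.73), and within the shared cluster −0.49 (−0.84 to −0.15). The median log2 ratio of the 6 members tested in these monocytes was −0.78, beside −0.05 for all genes of the gate. Of the UMIs of all genes in ConA+TCDD monocytes, only 176382 of 526565 were in the shared cluster. The summed granulocyte progenitor markers were at 1863 CPM in these monocytes against 750 in those of ConA+Veh. The part of these cells in the whole-gate ratios was not tested.

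In ConA+FICZ against ConA+Veh, 1 of 17 members and gates was past 2-fold higher and 2 were lower, beside 3.97% higher and 1.83% lower of all 16418 pairs. The higher one was 1 of 7 members in the monocyte gate, where 2.97% of all genes were higher and 1.09% lower. It was Cxcl1, with a log2 ratio of 1.29 (0.74 to 1.86), which was 1.52 (0.89 to 2.19) within the shared cluster and 2.14 (1.40 to 2.95) without the top cell of each library. Its UMIs were in 19 of 172 ConA+FICZ monocytes (11%) and 5 of 176 ConA+Veh monocytes (2.84%), or after thinning in 2.33% and 0.568%, near the level of 1 UMI. In the B and T or NK gates 0.504% and 0.266% of ConA+FICZ cells held Cxcl1. The lower ones were Il1b and Il1rn in macrophages. Cxcl2 in monocytes was 1.34-fold higher in ConA+FICZ (log2 ratio 0.42, 0.36 to 0.49) and Il1b 1.58-fold lower (−0.66, −0.82 to −0.51). The antagonist Il1rn in monocytes had −0.15 (−0.61 to 0.31) and the decoy receptor Il1r2 0.11 (−0.09 to 0.31), intervals that both held 0. The Il1r2 value joined parts of the gate that differed in opposite directions. It was −0.45 (−0.75 to −0.16) in monocytes with at least 3 macrophage markers and 0.72 (0.43 to 1.02) in those with fewer. Within the shared cluster Il1r2 had 0.61 (0.33 to 0.89). Cxcl2 was higher in both parts, at 0.19 (0.11 to 0.27) and 0.94 (0.82 to 1.07).

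**Figure D3:**
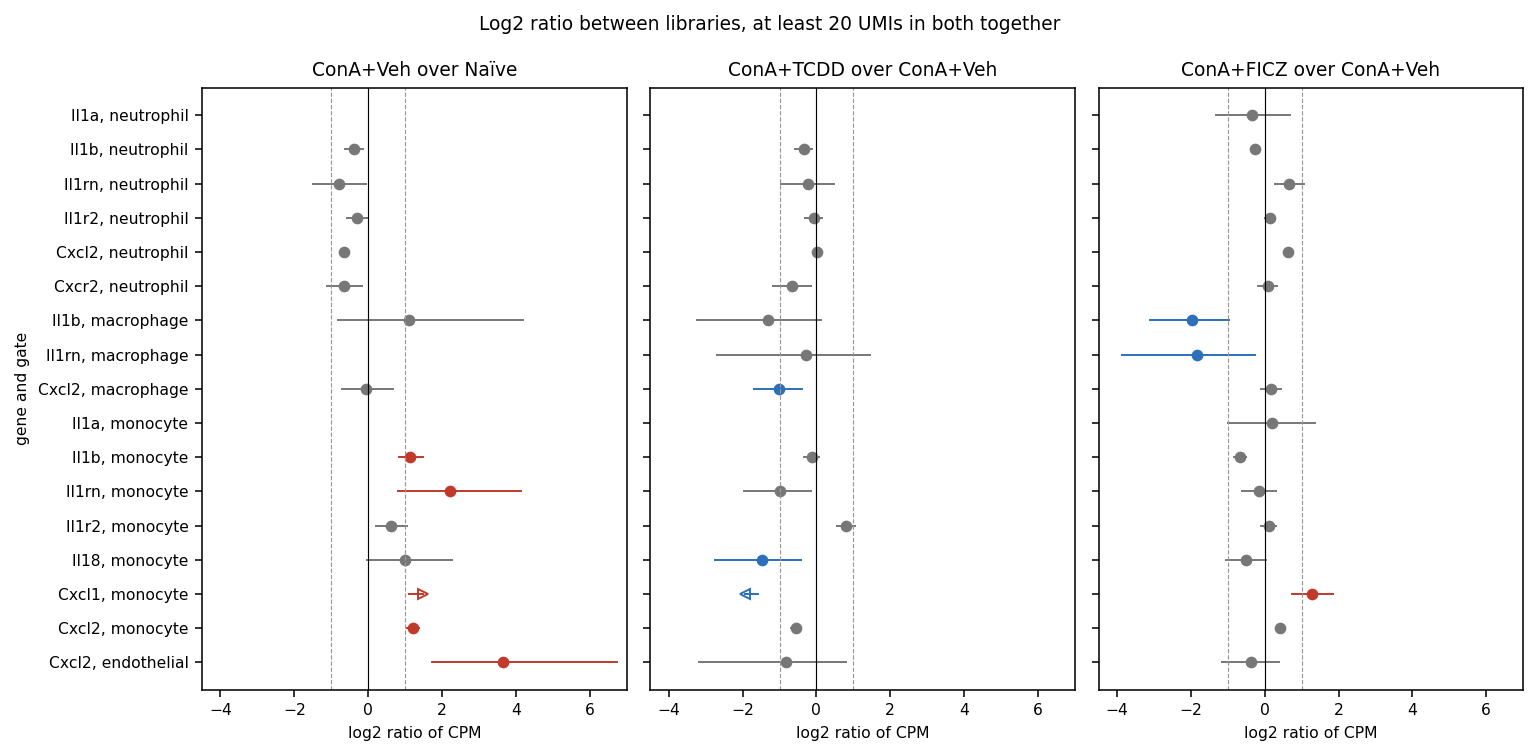
Log2 ratios of the members in each gate for ConA+Veh against Naïve, ConA+TCDD against ConA+Veh and ConA+FICZ against ConA+Veh, with exact 95% intervals of counting error for the pairs with at least 20 UMIs. Cxcl2 in ConA+Veh against Naïve lies at −0.66 in neutrophils and at 1.21 in monocytes.

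Macrophage-gated cells were few, and their values rest on 3, 37, 7 and 24 cells. Of 3 members with enough UMIs, 0 were higher and 0 lower in ConA+Veh against Naïve (6.05% and 6.05% of all genes in the gate), 0 and 1 in ConA+TCDD against ConA+Veh (4.96% and 3.92%), and 0 and 2 in ConA+FICZ against ConA+Veh (3.98% and 4.77%). Il1b had 2, 54, 4 and 10 UMIs there (272, 590, 237 and 152 CPM in the 4 libraries), and ConA+FICZ against ConA+Veh had a log2 ratio of −1.96 (−3.10 to −0.97). Il1rn had 0, 20, 3 and 4 UMIs, with a ratio of −1.85 (−3.85 to −0.27) for ConA+FICZ against ConA+Veh, all 4 ConA+FICZ UMIs being in 1 cell. ConA+Veh thus held the most UMIs of both, in the gate with the most cells. The Naïve gate held 7359 UMIs of all genes against 91541 in ConA+Veh. Its 0 Il1rn UMIs therefore do not show a lower level than in ConA+Veh. Without the cell with the most UMIs in each library, Il1b kept its call at −2.31 and Il1rn lost it, and as the mean of each cell's CPM Il1b lost its call, at −0.75. Cxcl2 was at 2854, 2742, 1365 and 3099 CPM in the macrophages of the 4 libraries, from 21, 251, 23 and 204 UMIs. ConA+TCDD against ConA+Veh was −1.01 (−1.69 to −0.39), but as a mean of each cell's CPM it was 0.07, the opposite direction. Cxcr2 was not detected in any macrophage, and Cxcl1 had 2 UMIs, both in ConA+FICZ.

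Endothelial cells carried some Il1a, as neutrophils, monocytes and macrophages of the ConA libraries also did, and almost no Il1b. Of the members only Cxcl2 had enough UMIs for a ratio, and it was higher in ConA+Veh against Naïve (8.56% of all genes in the gate were higher and 10.4% lower) and past 2-fold in neither ConA+TCDD (3.2% and 2.42%) nor ConA+FICZ (3.1% and 2.32%) against ConA+Veh. All 11 Il1a UMIs of the Naïve library were in 9 of its 42 endothelial cells, a level of 81.5 CPM (40.7 to 146). In ConA+Veh, ConA+TCDD and ConA+FICZ endothelial cells Il1a had 5, 2 and 5 UMIs (21.8, 69.9 and 31.5 CPM), too few together with Naïve for a call. The ConA+Veh interval was 7.07 to 50.8 CPM, and its overlap with that of Naïve does not show that the levels were alike. Only 1 of the 11 Naïve UMIs was in the 9 Naïve cells of the shared cluster (19.8 CPM, 0.502 to 111). In neutrophils Il1a was at 0, 53.1, 30.4 and 41.9 CPM in the 4 libraries. Neutrophils held 0%, 25.9%, 23.1% and 54.7% of each library's Il1a UMIs, and endothelial cells 100%, 9.26%, 15.4% and 9.43%. Monocytes held 0%, 25.9%, 30.8% and 26.4%, and the macrophage gate 0%, 11.1%, 7.69% and 1.89%. In ConA+Veh the macrophage gate had 6 Il1a UMIs among 91541 of all genes, and the neutrophil gate 14 among 263794. Il1b had a single UMI in ConA+FICZ endothelial cells, and 0 in the endothelial cells of the other libraries. Cxcl2 had 2, 43, 3 and 23 UMIs in the endothelial cells of the 4 libraries, and the log2 ratio for ConA+Veh against Naïve was 3.66 (1.72 to 6.75), a 12.6-fold difference. A single cell held 35 of the 43 UMIs in ConA+Veh and another held 19 of the 23 in ConA+FICZ, and without the top cell of each library the first ratio was 0.59 and no longer a call. Within the shared cluster, with 9 Naïve cells, it was 2.24 (0.30 to 5.33). In Naïve, all 12 Cxcl1 UMIs of the library were likewise in 1 endothelial cell.

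**Figure D4:**
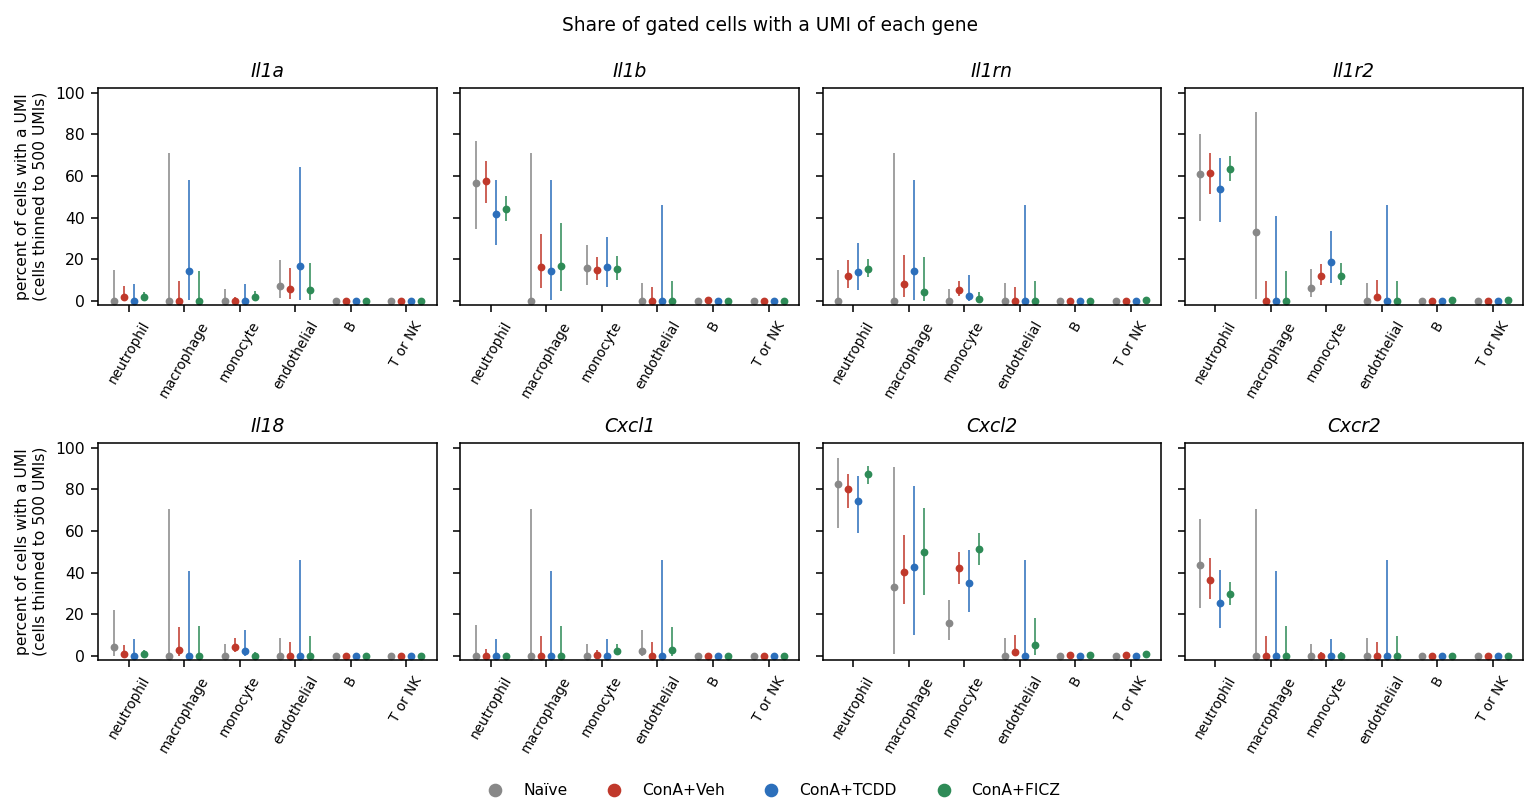
Share of cells (percent) with at least 1 UMI of each member after every cell was thinned to 500 UMIs, by gate and library, with exact 95% binomial intervals and the B and T or NK gates as background. Cxcl2 was found in 74.4% to 87.2% of neutrophils and 15.6% to 51.2% of monocytes.

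When all UMIs of a library were attributed to cell classes, the 4 gates held 5.27% to 19.5% of the cells but most UMIs of Il1b, Il1rn, Il1r2, Cxcl2 and Cxcr2. For Il1b the 4 gates held 83.3% of UMIs in Naïve, 79.8% in ConA+Veh, 81.3% in ConA+TCDD and 94.1% in ConA+FICZ. Which gate held them differed between libraries. Neutrophils had 55.4% of the Il1b UMIs in Naïve, 33.8% in ConA+Veh, 37.9% in ConA+TCDD and 70.6% in ConA+FICZ, and monocytes had 27.2%, 43.5%, 42.7% and 23.0%. For Cxcl2, neutrophils had 71.2%, 36.9%, 44.0% and 70.4%, again highest in Naïve and ConA+FICZ. The ConA+FICZ library held 17120 Cxcl2 UMIs against 8054 in ConA+Veh, and 10.4% of its cells were in the neutrophil gate against 3.63%. Cxcr2 UMIs were in neutrophils for 98.0%, 88.3%, 71.9% and 96.6%, and Il1r2 UMIs for 68.3%, 53.3%, 44.5% and 79.4%, with another 27.6%, 37.0%, 43.0% and 18.0% of Il1r2 in monocytes. The ConA+TCDD library held 57 Cxcr2 UMIs, the ConA+Veh library 196 and the ConA+FICZ library 497. As shares of cells come from 1 library a condition, these attributions describe the libraries.

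Il18 and Cxcl1 were divided otherwise. For Il18 monocytes held 26.7% of UMIs in Naïve, 67.5% in ConA+Veh, 42.1% in ConA+TCDD and 53.8% in ConA+FICZ, and B cells held 36.7% of the 30 UMIs in Naïve. Most Cxcl1 of ConA+Veh and ConA+TCDD lay outside the leukocytes. In ConA+Veh, 130 of 210 Cxcl1 UMIs (61.9%) were in 3 of 10 cells of a stellate or fibroblast gate, and 15.7% were in the bile duct gate. In ConA+TCDD, 119 of 130 UMIs (91.5%) were in 5 of 11 stellate or fibroblast cells. In ConA+FICZ, 43.3% of the 203 UMIs were in monocytes and 18.7% were spread over 26 of 119 cells of a hepatocyte gate, a gate that held 19 Naïve cells, 5 from ConA+Veh and 0 from ConA+TCDD.

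**Figure D5:**
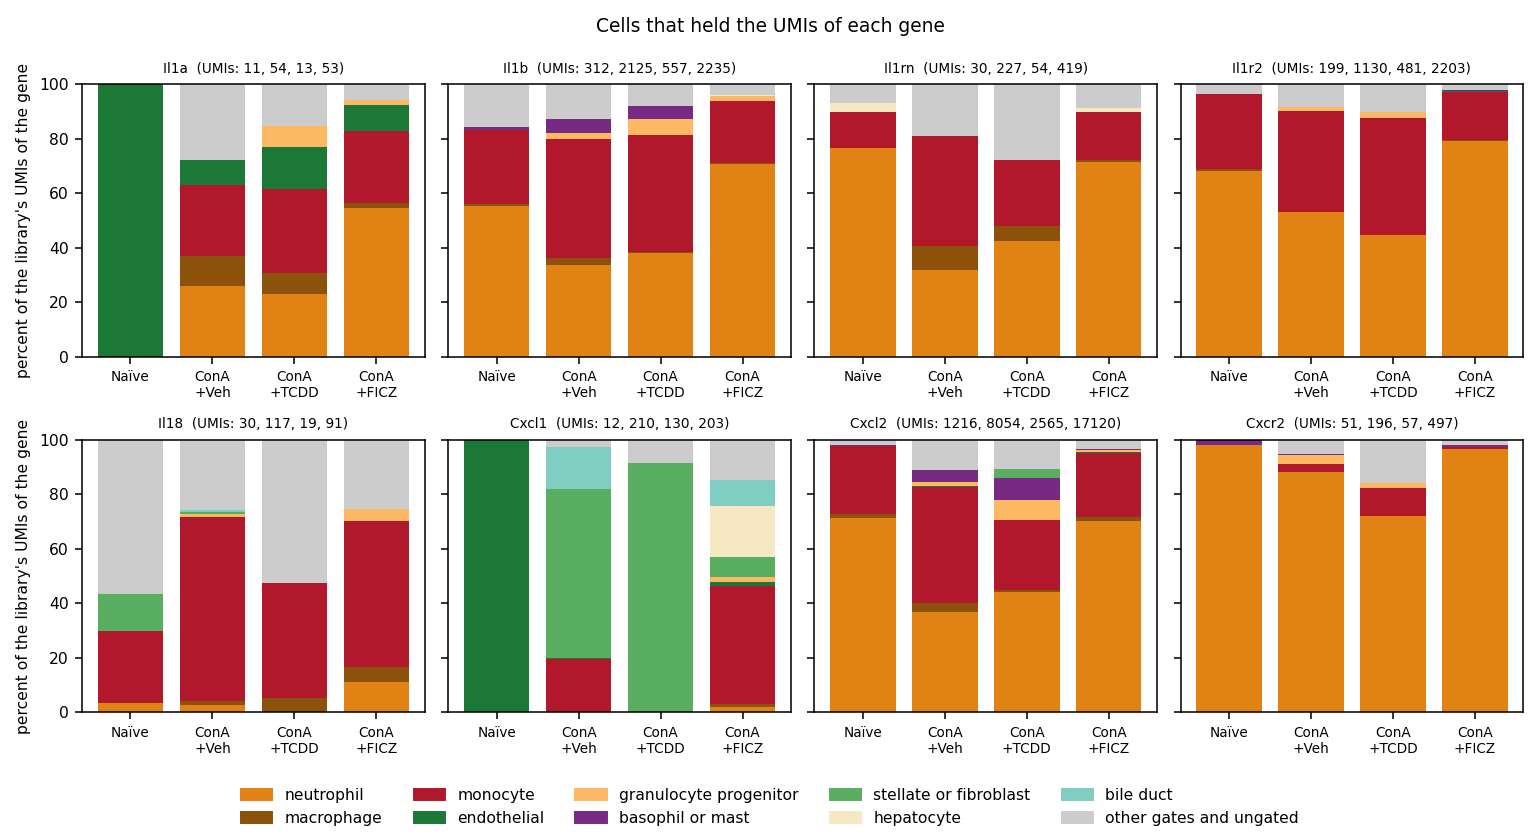
Share (percent) of each member's UMIs in a library that lay in each cell class, as stacked bars for the 4 libraries. Neutrophils hold 71.9% to 98.0% of Cxcr2, while the stellate or fibroblast class holds 91.5% of Cxcl1 in ConA+TCDD.

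Other genes of the pathway were mostly within 2-fold. Of 16 receptor, adaptor and related genes of the IL-1 family in the 4 gates, 18 pairs of gene and gate had enough UMIs for ConA+Veh against Naïve, of which 1 was past 2-fold higher (Il18bp, the secreted inhibitor of IL-18, in endothelium, log2 ratio 1.29, 0.53 to 2.12) and 1 lower (Il18rap, a subunit of the IL-18 receptor, in neutrophils, −1.74). For ConA+TCDD against ConA+Veh 1 of 15 was higher (Il18rap in monocytes, 1.99), and for ConA+FICZ against ConA+Veh 3 of 24 were higher, all in neutrophils. Those were Irak3, an inhibitor of IL-1 receptor signalling (1.91, 0.79 to 3.28), Il18rap (1.23) and Tollip (2.07). Among 8 inflammasome genes, 1 of 14 was lower in ConA+Veh against Naïve (Nlrp3, the inflammasome sensor, in neutrophils, −1.0, −1.83 to −0.11) and 0 of 13 and 0 of 16 passed in ConA+TCDD and ConA+FICZ.

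Of the 6 other chemokines and receptors listed with Cxcr2, Cxcl3, another Cxcr2 ligand, was at 925 CPM in Naïve neutrophils, 409 in those of ConA+Veh and 863 in those of ConA+TCDD. ConA+Veh was the low library of the 3, with log2 ratios of −1.18 (−1.69 to −0.64) to Naïve and 1.08 (0.65 to 1.5) for ConA+TCDD against ConA+Veh. Cxcl2 in the same neutrophils had 0.02 for the latter ratio, with an interval that held 0. Pf4, a platelet chemokine, had 340 CPM in Naïve monocytes, 4.29 in ConA+Veh and 246 in ConA+FICZ, with log2 ratios of −6.31 (−7.55 to −5.29) and 5.84 (4.85 to 7.06). In macrophages its ratios were −5.18 for ConA+Veh against Naïve, 2.30 for ConA+TCDD and 4.07 for ConA+FICZ against ConA+Veh. Of the Naïve monocytes, only 13 of 64 were in the shared cluster, and the Naïve macrophage gate held only 3 cells. No value within the shared cluster or without the top cell was computed for Pf4. Ackr1, a receptor that binds chemokines without signalling, was past 2-fold higher in ConA+Veh endothelium than in Naïve (1.43, 0.01 to 3.19). Of the Naïve endothelial cells, 33 of 42 lay in another cluster than all 53 of ConA+Veh. Values within the shared cluster or without the top cell were not computed for Ackr1 or Il18bp either. Over the 4 gates, the 6 other chemokines and receptors had 1 of 5 pairs higher and 3 lower in ConA+Veh against Naïve. They had 2 of 4 higher in ConA+TCDD and 2 of 5 higher in ConA+FICZ. The list of 11 dissociation genes had 3 of 38 higher and 13 lower in ConA+Veh against Naïve, 2 of 39 higher and 7 lower in ConA+TCDD and 5 of 41 higher and 5 lower in ConA+FICZ. All these list counts stand beside the shares over all gene and gate pairs, which were 5.02% higher and 9.05% lower in ConA+Veh against Naïve, 2.84% and 3.18% in ConA+TCDD and 3.97% and 1.83% in ConA+FICZ against ConA+Veh. In monocytes the summed level of the dissociation genes was 7529 CPM in Naïve and 2836, 1916 and 3534 in ConA+Veh, ConA+TCDD and ConA+FICZ. Its part in the monocyte levels of the members was not tested.

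Across the 16 sums of gate and library, the genes most like each member were found by Pearson's r of log2(CPM + 10) over 6221 genes, as a description, since sums of a library share their depth and its preparation. For Cxcr2 they were Slc2a3 (0.996), Arg2 (0.995) and Chil1 (0.993), and for Il1r2 they were Mmp8 (0.978), Sorl1 (0.947) and Nfe2 (0.926). Il1b was most like Prdx5 (0.968), Pilra (0.967) and Cd14 (0.967), Il1rn like Siglece (0.959), Rab11fip1 (0.949) and Rap1gap2 (0.944), and Cxcl2 like Fbxl5 (0.966), Slfn1 (0.955) and Lcp1 (0.954). Il18 was most like Pik3r5 (0.933), Fam46a (0.907) and Gm6377 (0.880). Likeness was lower for the members with few UMIs over the 16 sums, Il1a (109 UMIs), with Ndfip2 (0.797), Ube2d1 (0.793) and Pfkfb3 (0.771), and Cxcl1 (151 UMIs), with Ang (0.823), Heatr5a (0.771) and Kat5 (0.766).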

How the data were processed

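Single-cell RNA-sequencing count matrices of liver mononuclear cells from 4 conditions, 1 library each, were analysed. Counts are the UMI counts per gene and cell that the authors deposited as filtered matrices, made per the file headers with Cell Ranger (3.0.2) and, per the submitters' processing notes, the mm10 genome. Each library held 5952445, 19252211, 12077209 or 16017797 UMIs (Naïve, ConA+Veh, ConA+TCDD, ConA+FICZ), and the smallest cell 500 to 501. No cell was removed and no doublet caller was run.

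Cells were gated by 14 lists of 10 markers (at least 3 with a UMI, and more than any other list), and 158, 368, 404 and 339 cells stayed ungated. Counts were summed per gate and library and given as CPM with exact Poisson intervals. Ratios had exact binomial intervals and shares exact Clopper-Pearson intervals (95%). A count of 0 was set to 3 for a ratio, with the other count taken as exact. A ratio was called at a log2 size of at least 1, an interval that excludes 0 and 20 or more UMIs in both libraries. PCR and capture error are not covered. No test between conditions was possible with 1 library each. The call was also run on simulated counts with known changes and counting error only. Spread between cells or libraries was not simulated, so that run cannot show how the call behaves under it. Cells of all libraries were clustered together (leidenalg 0.10.2, scikit-learn 1.9.0). Intervals were computed with scipy 1.17.1, tables with pandas 2.3.3 and numpy 2.4.6 under Python 3.11.15, and figures drawn with matplotlib 3.10.9.

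The named genes are the 8 members in every gate and library, genes of 4 pathway lists past 2-fold, dissociation genes by counts, and the 3 genes most like each member. The members, markers and lists were chosen with earlier results of these data known. Promoter sequences were taken from RefSeq (GRCm38.p6) and gene positions from GENCODE M21 (GRCm38). All 8 members matched. Alternatives were other marker minimums, classes from clusters, cells without a second marker list, a cell quality filter, other scalings and UMI minimums, and thinning to other depths. Leaving out the cell with the most UMIs and keeping the main cluster of a gate were added after seeing the data.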

Additional observations from a re-analysis of the deposited data

Results flagged for a closer look

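Cells that joined no gate were left out of all comparisons, yet held UMIs of some members above the level in ungated Naïve cells. Cxcl2 was at 592 CPM in the ungated cells of ConA+Veh, 229 in ConA+TCDD and 636 in ConA+FICZ, against 68.5 in Naïve. Il1rn was at 36.5 CPM in ConA+Veh and 38.3 in ConA+FICZ, Il1r2 at 52.1 CPM in ConA+Veh and Cxcl1 at 35.3 CPM in ConA+FICZ, where the Cxcl1 of Naïve ungated cells had 0 UMIs. Ungated cells were shallow, with a median of 1040 UMIs in Naïve, 1120.5 in ConA+Veh, 1451.5 in ConA+TCDD and 928 in ConA+FICZ. In ConA+Veh the 455 Cxcl2 UMIs were in 40 of 368 ungated cells.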

How the results depend on the processing

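With 1 library a condition, no value has a replicate behind it. No paired analysis was possible because each group holds 1 sample. The direction of the 46 log2 ratios was kept by 46 under a filter on mitochondrial share and gene number and by 45 under marker minimums of 2 and of 4. It was kept by 37 of 44 without cells of a second marker list, by 40 of 46 as the mean of each cell's CPM, by 34 of 38 with classes taken from clusters, which gave no macrophage class, and by 43 of 46 within the main cluster of each gate. Leaving out cells of a second list cut the monocyte gate from 64, 176, 43 and 172 cells to 54, 52, 19 and 50. Of the calls, the direction turned in 1, Cxcl2 in macrophages for ConA+TCDD against ConA+Veh, at 0.0655 as the mean of each cell's CPM. The cause was not tested. Counts past 2-fold higher in ConA+Veh against Naïve were 2 within the main cluster and 3 at a minimum of 50 UMIs, against 5, and lower ones were 1 at 4 markers and 2 with no minimum, against 0. For ConA+TCDD against ConA+Veh, higher ones were 1 without cells of a second marker list, 2 with clusters, 2 as the mean of each cell's CPM, 1 as mean UMIs per cell and 1 within the main cluster, against 0, and lower ones were 1 without cells of a second list, 0 with clusters and 1 within the main cluster, against 3. For ConA+FICZ against ConA+Veh, higher ones were 2 without cells of a second list and 3 with clusters, against 1, and lower ones were 1 at 4 markers, 0 with clusters, 1 at a minimum of 50 UMIs and 1 without the top cell, against 2. No ratio could be computed for 4 pairs of result and alternative: Cxcl1 in monocytes without cells of a second list in the first 2 comparisons, and Il1b in macrophages (ConA+Veh against Naïve) and Cxcl2 in endothelium (ConA+TCDD against ConA+Veh) without the top cell. With classes from clusters, Cxcl2 in endothelium was at 3.62 for ConA+TCDD and 1.37 for ConA+FICZ against ConA+Veh, the opposite direction to the gate. Without cells of a second list, Il1rn in ConA+FICZ monocytes was at 0.79 and Cxcl2 in ConA+Veh macrophages against Naïve at 1.61, also turned. Of 104 shares of cells, 49 moved by more than their interval with no thinning and 21 at 1000 UMIs. Naïve macrophages (3 cells) and ConA+TCDD endothelium (6 cells) limit what depth can show.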

Other observations

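Outside the 4 gates, basophil or mast cells held much Cxcl2 in few cells. Their Cxcl2 level was 155 CPM in Naïve (3 cells), 9766 in ConA+Veh (8 cells), 12550 in ConA+TCDD (4 cells) and 621 in ConA+FICZ (5 cells), with 204 of the 206 ConA+TCDD UMIs in 1 cell. Il1b in the same cells was at 464, 3105, 1584 and 84.7 CPM in the 4 libraries, and 86 of its 110 ConA+Veh UMIs were in 1 cell. In ConA+Veh, 226 Cxcl2 UMIs lay in 17 of 846 B cells, 120 of them in 1 cell.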
